A study of Mus musculus with 12 samples.

Results

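The genes of the NF-kappaB subunits and of their inhibitors were followed through untreated, granule-treated and relapsed B16F10 melanoma cells. The set holds 10 of the 54232 genes of the deposited count table, taken by gene symbol: the 5 subunit genes Nfkb1, Nfkb2, Rel, Rela and Relb, and 5 genes that restrain or modify the pathway, Nfkbia, Nfkbie, Nfkbiz, Bcl3 and Tnfaip3. B16F10 is a mouse melanoma line of C57BL/6 origin, and RNA of 12 libraries was sequenced in 4 groups of 3. WT cells were cultured and left untreated. Lyso cells were cultured B16F10 given lysosomes derived from T cells, which the study calls secreted granules; the labels give 48 h of incubation and the study's methods a shorter one. The Tumor libraries (Tumor 1, 3 and 4) came from B16F10 cells that had been injected under the skin of mice, treated there with immunotherapy, sorted from the tumors that came back and lysed at once. The study's results place the sorting 5 days after immunotherapy, while its figure legend and methods name relapsed tumors. The relapsed lines ITF1, ITM and Rel came from cells sorted in the same way and then grown to confluency. All labels give the strain C57BL/6 and an age of 6 weeks. They do not say which immunotherapy each library saw, and the study's therapies include TNF and a CD40 agonist injected with an antibody against the melanoma protein TRP1. The Tumor cells passed through enzymatic digestion and sorting, and the Lyso cells through low-adherence plates, steps that the labels do not give for WT. ITF1, ITM and Rel are separate lines. For the other groups the labels do not say whether the libraries came from separate cultures or animals, and the study's general statement that its experiments were repeated does not name these libraries. The p-values below measure the spread between the libraries, which there may be technical.

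NF-kappaB is a family of dimeric transcription factors. In resting cells IkB proteins hold the dimers in the cytoplasm, and receptors such as those for TNF, CD40 and interleukin-1 lead to the phosphorylation of IkB by the IKK kinases and to its breakdown, which frees the dimer to enter the nucleus. Several of the first genes that it switches on encode its own inhibitors, among them Nfkbia and Tnfaip3, and this negative feedback limits the response. In melanoma, as in other tumors, the pathway is known for its part in survival and in the production of cytokines. Its activity is set mainly by protein breakdown and movement, so the mRNA levels given here measure the abundance of the transcripts and not the activity of the factors.

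The promoter sequences are shown because several of these genes carry the DNA element that NF-kappaB itself binds. The RefSeq promoter table of GRCm38.p6, which spans 250 bases before to 50 after each start, held 7 of the 10 members; Nfkb1, Relb and Nfkbiz were not in it. A search of both strands for the kappaB motif, the degenerate element of 10 bases, found a match at 6 of these 7 genes, and 8.46% of all 32851 promoters in the table held one. The members are counted here by gene and the share by promoter, and a gene can have several. Nfkb2 had 3 listed starts, and Tnfaip3 had a further start without a match. Matches may overlap, as in Nfkb2 and Rel, where 1 stretch of 11 bases holds a pair. The 150 bases before the start of Nfkbia, Rel and Nfkbie are given 5′ to 3′ with the matched bases in capitals.
Nfkbia (chr12:55492648-55492797, minus strand): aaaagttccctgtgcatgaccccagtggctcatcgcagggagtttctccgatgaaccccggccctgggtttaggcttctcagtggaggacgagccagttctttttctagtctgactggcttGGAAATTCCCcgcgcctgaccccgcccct
Rel (chr11:23770970-23771119, minus strand): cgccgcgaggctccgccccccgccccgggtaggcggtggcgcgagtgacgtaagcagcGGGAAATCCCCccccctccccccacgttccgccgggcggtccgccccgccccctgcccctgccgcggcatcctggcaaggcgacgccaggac
Nfkbie (chr17:45555550-45555699, plus strand): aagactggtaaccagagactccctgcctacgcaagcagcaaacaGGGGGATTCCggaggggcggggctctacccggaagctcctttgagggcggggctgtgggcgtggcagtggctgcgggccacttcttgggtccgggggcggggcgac
For Tnfaip3, Nfkb2 and Bcl3, whose windows run into the annotated extent of the gene, the matched bases are given with 9 bases on each side.
Tnfaip3 (chr10:19015517-19015544, minus strand): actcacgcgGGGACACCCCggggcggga
Tnfaip3 (chr10:19015404-19015431, minus strand): atttccatcGGAAATCCCCctgttggca
Nfkb2 (chr19:46304689-46304717, plus strand): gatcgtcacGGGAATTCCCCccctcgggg
Nfkb2 (chr19:46304717-46304744, plus strand): gggccgaaaGGGGCTTTCCcggctggag
Bcl3 (chr7:19822735-19822762, minus strand): cggcggcagGGGAAGTCCCgctgcccgg
The match of Nfkbia lay 29 to 20 bases before the start, and those of Tnfaip3 lay 125 to 116 and 12 to 3 bases before it. In Rel the stretch lay 92 to 82 bases before the start and in Nfkbie 106 to 97. Nfkb2 had stretches 39 to 29 and 11 to 2 bases before the first of its 3 listed starts, and Bcl3 had one at bases 3 to 12 after the start. Rela held no match in this window. The STAT motif TTCNNNGAA, searched in the same way, was found in 8.30% of all promoters and among the members in Nfkb2 alone. These matches describe letters in a window and do not show binding. Genes with a match included ones that rose in Tumor (Nfkbia, Tnfaip3, Rel, Bcl3) and ones that were not called there (Nfkb2, Nfkbie).

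**Figure D1:**
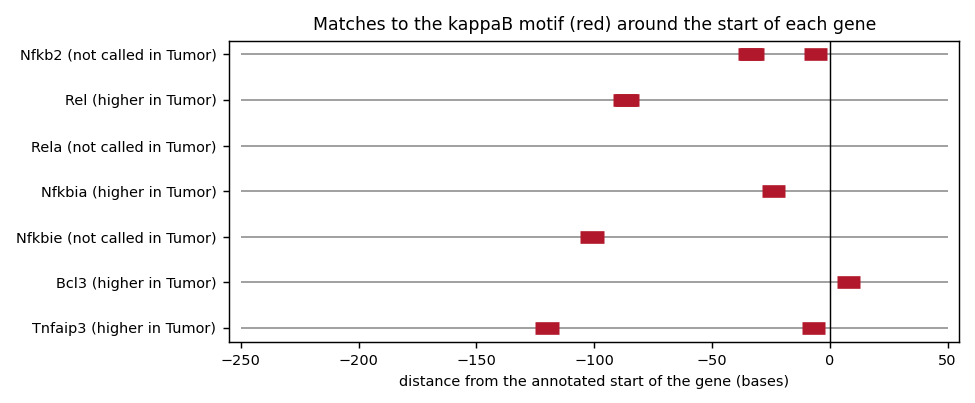
Position of the kappaB motif matches (red blocks) from 250 bases before to 50 bases after the first listed start of the 7 genes found in the RefSeq promoter table, in bases from the start (vertical line), with the call in Tumor against WT beside each name. Rela is the gene without a match, and Bcl3 the one whose match lies after the start.

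Counts on genes ranged from 1667398 (WT 1) to 16402629 (ITM) per library. All of Tumor, WT 1 and WT 2 held at most 5049496 counts, and the remaining libraries at least 10895611. Levels are given as CPM, counts relative to the size of the library, scaled by TMM, a correction for differences in RNA composition. Differences were tested for each gene with edgeR's quasi-likelihood test in one fit of all 12 libraries, and a gene was called at a Benjamini-Hochberg adjusted p under 0.05 over the 14924 genes tested. All 10 members were tested. Bcl3 reached the level the filter asks for in all libraries of Lyso and Tumor but not of the other groups, so it was tested through the groups in which it was high. Melanocyte markers, a list of 10 genes, summed to between 19840 and 38290 CPM in every library, with all 10 above 3 counts in each. The sums were 19840 to 28700 CPM in WT and 23300 to 38290 CPM in the relapsed lines. In Lyso they were 30260 to 31040 CPM, and in Tumor 20860 to 23170 CPM.

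The Tumor cells differed most. Of the 10 members 5 rose against WT and none fell, namely Rel among the subunits and Nfkbia, Nfkbiz, Bcl3 and Tnfaip3 among the inhibitors, where 12.1% of all genes tested rose and 6.94% fell. In Lyso 2 members rose, Rel and Nfkbiz, and none fell, where 3.50% of all genes rose and 1.21% fell. In the relapsed lines no member was called by edgeR, where 0.0134% of all genes rose and 0.0268% fell. There 1 member, Nfkb1, had an unadjusted p under 0.05 (edgeR), as did 1636 of the 14924 genes tested. DESeq2 called 0 members as well, and of all genes it called 102 higher and 77 lower. Over the 10 members the median log2 fold change against WT was 0.98 in Tumor, 0.18 in Lyso and 0.25 in the relapsed lines, and over all genes tested it was 0.0014, -0.0048 and 0.0077. Every Tumor library lay above every WT library for 5 members and below for 1, Nfkb1, where 21.0% of all genes lay above and 15.1% below. For Lyso these counts were 4 and 2, where 15.8% of all genes lay above and 11.6% below. The 3 comparisons share the WT libraries.

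**Figure D2:**
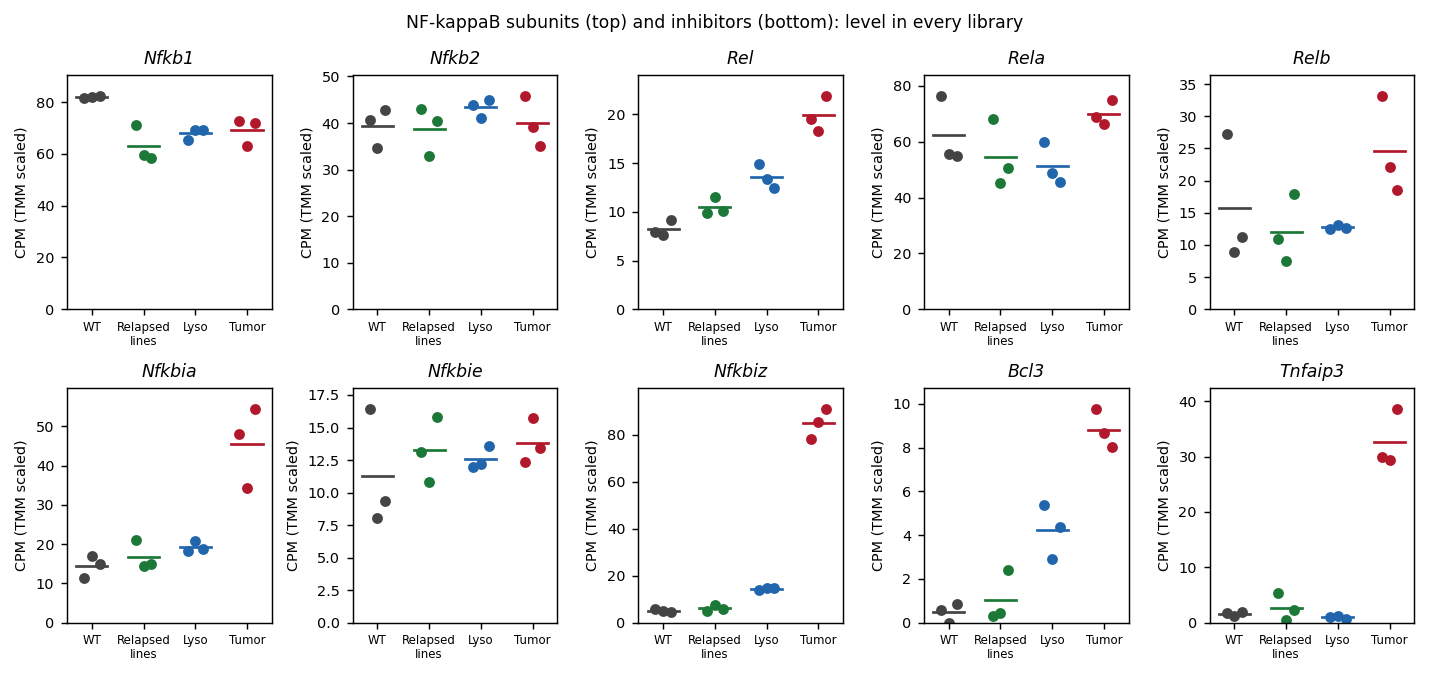
Level of each of the 10 genes in every library, in TMM-scaled CPM on linear axes that start at 0. Points are libraries (3 per group) and bars are group means. The Tumor libraries lie above all others for Rel, Nfkbia, Nfkbiz, Bcl3 and Tnfaip3.

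Nfkbiz, which encodes IkB-zeta, a nuclear IkB protein that takes part in switching on a subset of secondary NF-kappaB targets, rose in both Lyso and Tumor. It lies on chromosome 16 of GRCm38 (55811375 to 55838899). It had 5.66, 5.07 and 4.48 CPM in the WT libraries, 4.76 (ITF1), 7.55 (ITM) and 5.82 CPM (Rel) in the relapsed lines, 13.9, 14.5 and 14.5 CPM in Lyso and 78.3, 85.3 and 90.9 CPM in Tumor. The 3 levels of WT, Lyso and Tumor did not overlap, and the relapsed lines overlapped WT alone. Its level was 17.5-fold higher in Tumor than in WT (log2 fold change 4.13, SE 0.19, adjusted p = 3.62e-08, edgeR) and 2.95-fold higher in Lyso (1.56, SE 0.19, adjusted p = 0.000649, edgeR). Nfkbiz and Rel were the members called in both of these. Nfkbiz kept both calls in each fit that left out a library, with adjusted p at most 0.0116 in Lyso (edgeR). Tumor was also 5.93-fold above Lyso (2.57, SE 0.16, adjusted p = 2.74e-07, edgeR).

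Tnfaip3 encodes A20, an enzyme that edits ubiquitin chains and shuts down signaling from TNF and Toll-like receptors (chromosome 10, 19000910 to 19015657). It had 1.70, 1.27 and 1.89 CPM in WT, of which the first and the second stand for 3 counts each. In the relapsed lines it had 5.30 (ITF1), 0.479 (ITM) and 2.21 CPM (Rel), in Lyso 0.943, 1.21 and 0.729 CPM, and in Tumor 29.9, 29.4 and 38.6 CPM. Tumor stood far above every other library, Lyso lay below every WT library, and the relapsed lines spread to both sides of WT. The rise in Tumor against WT was 18.7-fold (log2 fold change 4.22, SE 0.63, adjusted p = 0.000538, edgeR). The value in Lyso was not called (-0.85, 95% interval -2.44 to 0.73, adjusted p = 0.591, edgeR), and the Lyso libraries held 9 to 13 counts of the gene. Between Tumor and Lyso the difference was 5.08 on the log2 scale (SE 0.60, adjusted p = 6.50e-05, edgeR).

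Bcl3 encodes a nuclear IkB protein that binds p50 and p52 dimers and can act as a co-activator (chromosome 7, 19808462 to 19822770). It was the lowest of the members in WT, with 0.566, 0 and 0.826 CPM, which are 1, 0 and 14 counts. ITF1 and ITM had 0.307 and 0.419 CPM and the line labelled Rel 2.41 CPM. Lyso had 5.37, 2.89 and 4.37 CPM and Tumor 9.75, 8.66 and 8.003 CPM. The groups were ordered WT, Lyso and Tumor without overlap, and the line labelled Rel lay between WT and Lyso. Bcl3 rose in Tumor (log2 fold change 3.71, SE 0.75, adjusted p = 0.00401, edgeR), and without WT 3, which leaves 1 count in all of WT, the value was 5.09. In Lyso the log2 fold change was 2.66 (SE 0.74) and missed the threshold (adjusted p = 0.0624, edgeR), while DESeq2 called it (adjusted p = 0.00865). Of its exonic bases 6.51% lie opposite exons of the antisense gene Gm16175, and the strand setting of the counting is not given in the sources used here, so reads of the pair cannot be told apart there.

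Nfkbia encodes IkB-alpha, the inhibitor that is resynthesized when NF-kappaB is active (chromosome 12, 55489410 to 55492647). Its CPM were 11.3, 16.9 and 14.98 in WT, 21.1 (ITF1), 14.5 (ITM) and 14.8 (Rel) in the relapsed lines, 18.2, 20.9 and 18.6 in Lyso and 48.1, 34.2 and 54.4 in Tumor. Tumor was above all other libraries and Lyso above all of WT. The rise in Tumor was 3.11-fold (log2 fold change 1.64, SE 0.22, adjusted p = 0.000274, edgeR). In Lyso the difference of 0.40 (95% interval -0.08 to 0.87) was not called (adjusted p = 0.364, edgeR), nor was it in the relapsed lines (0.20, adjusted p = 0.777, edgeR).

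Nfkbie, which encodes IkB-epsilon, a further cytoplasmic inhibitor, did not follow the other inhibitors (chromosome 17, 45555703 to 45563169). It had 16.4, 8.02 and 9.38 CPM in WT, and every other library lay between 10.8 and 15.8 CPM, inside the range of WT. Its log2 fold change in Tumor was 0.37 (95% interval -0.18 to 0.92, adjusted p = 0.340, edgeR). WT 1 was the highest library of all, and without it Nfkbie was called in Tumor (0.64, adjusted p = 0.0492, edgeR).

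Among the subunits, Rel was the gene that rose. It encodes c-Rel, a subunit with a transactivation domain that is best known from lymphoid cells (chromosome 11, 23736847 to 23770970). Rel had 7.92, 7.60 and 9.20 CPM in WT, 9.91 (ITF1), 11.6 (ITM) and 10.04 CPM (the line labelled Rel) in the relapsed lines, 14.9, 13.4 and 12.5 CPM in Lyso and 19.5, 18.3 and 21.9 CPM in Tumor. The 4 groups did not overlap, in the order WT, relapsed lines, Lyso and Tumor. The gene was 2.35-fold higher in Tumor than in WT (log2 fold change 1.23, SE 0.17, adjusted p = 0.000376, edgeR). In Lyso it was 1.60-fold higher (0.68, SE 0.17, adjusted p = 0.0384, edgeR), and this call was lost whichever of the 6 libraries was left out, WT 1, 2 or 3 or Lyso 1, 2 or 3, with adjusted p between 0.0563 and 0.151 (edgeR). In the relapsed lines the difference of 0.31 was not called (adjusted p = 0.530, edgeR).

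Rela, which encodes p65, the main transactivating subunit of the classical pathway, had 76.4, 55.7 and 55.02 CPM in WT and 68.9, 66.4 and 74.8 CPM in Tumor (chromosome 19, 5637483 to 5648130). The Tumor libraries lay within the range of WT, and the log2 fold change was 0.19 (95% interval -0.20 to 0.58, adjusted p = 0.523, edgeR). Lyso had 45.4 to 59.9 CPM and the relapsed lines 45.3 to 68.3 CPM, and neither was called (adjusted p = 0.473 and 0.764, edgeR). Nfkb1, the gene of p105 and p50, was the most even within WT, at 81.5, 81.9 and 82.4 CPM (chromosome 3, 135584655 to 135691547). Every one of the other 9 libraries was lower, from 58.4 CPM in the line labelled Rel to 72.8 CPM in Tumor 1. The log2 fold change was -0.38 in the relapsed lines, -0.27 in Lyso and -0.24 in Tumor, and none of them was called (adjusted p = 0.237, 0.201 and 0.147, edgeR). These 3 values share the WT libraries.

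Nfkb2, the gene of p100 and p52 of the alternative pathway, varied least between groups (chromosome 19, 46304320 to 46312385). Its group means were 39.4 ± 4.28 CPM in WT, 38.8 ± 5.21 CPM in the relapsed lines, 43.4 ± 1.98 CPM in Lyso and 39.98 ± 5.44 CPM in Tumor (SD, n = 3 each), and all groups overlapped WT. The log2 fold change in Tumor was 0.01, with a 95% interval from -0.31 to 0.32 (adjusted p = 0.988, edgeR). Of its exonic bases 11.6% lie opposite AC114539.1 and 6.52% opposite Psd, with the same limit on strand as for Bcl3. Relb, whose product pairs with p52, had 27.2, 8.87 and 11.3 CPM in WT and 33.2, 22.1 and 18.6 CPM in Tumor (chromosome 7, 19606217 to 19629438). WT 1 lay among the Tumor libraries. The log2 fold change in Tumor was 0.73 (95% interval -0.14 to 1.61, adjusted p = 0.231, edgeR), and without WT 1 it was 1.23 and called (adjusted p = 0.0265, edgeR). Without WT 1 the members called in Tumor numbered 7, with Relb and Nfkbie added to the 5. That fit also called more of all 14924 genes, 2196 higher and 1396 lower against 1808 and 1035 with WT 1.

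**Figure D3:**
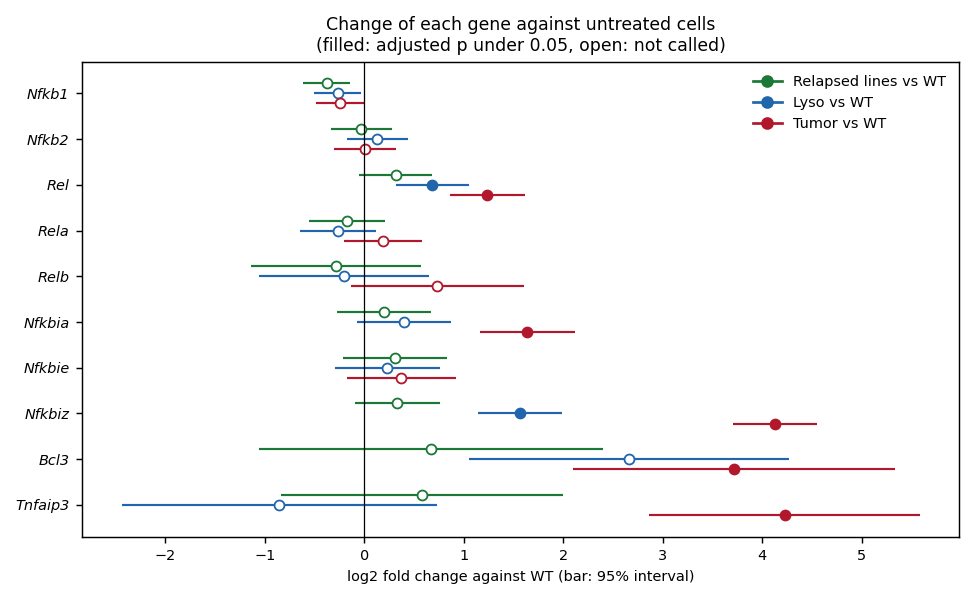
Log2 fold change against WT of each gene in the relapsed lines, Lyso and Tumor, with 95% intervals from edgeR's fit (filled points: adjusted p under 0.05, open points: not called). The filled points are Rel, Nfkbia, Nfkbiz, Bcl3 and Tnfaip3 in Tumor and Rel and Nfkbiz in Lyso.

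Against the relapsed lines, a comparison that shares the Tumor libraries with the one above, the same 5 genes rose in Tumor and none fell, where 11.8% of all genes tested rose and 7.74% fell. The log2 fold changes were 3.803 for Nfkbiz, 3.64 for Tnfaip3, 3.05 for Bcl3, 1.44 for Nfkbia and 0.92 for Rel, with the largest adjusted p, 0.00286, for Bcl3 (edgeR). ITF1 was the highest relapsed line for Tnfaip3, and without it the value was 4.62. The line labelled Rel was the highest for Bcl3, and without it the value was 4.52. Relb reached 1.02 (95% interval 0.21 to 1.83) and was not called (adjusted p = 0.0758, edgeR), although all Tumor libraries lay above all relapsed lines. DESeq2 called it (adjusted p = 0.0367), as did edgeR without the line labelled Rel (1.42, adjusted p = 0.0247). Without ITF1 the fit also called Rela (0.55, adjusted p = 0.0348, edgeR).

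Between Tumor and Lyso 4 members rose, Rel, Nfkbia, Nfkbiz and Tnfaip3, and none fell, where 14.2% of all genes were higher in Tumor and 10.5% lower. Rel differed by 0.55 (adjusted p = 0.0222, edgeR) and lost its call without Tumor 1, Tumor 4, Lyso 2 or Lyso 3, with adjusted p up to 0.0966, and it lost it with the replicate number as a block (0.180, edgeR). Bcl3 differed by 1.06 and was not called (95% interval -0.11 to 2.22, adjusted p = 0.175, edgeR). When the fit held the libraries of Tumor and Lyso alone, 7 members were called, with Relb, Bcl3 and Rela added. That fit called 3517 of all 14924 genes higher and 3128 lower, against 2121 and 1570 in the fit of the 4 groups. Between Lyso and the relapsed lines 1 member, Nfkbiz, rose (1.23, SE 0.16, adjusted p = 0.000618, edgeR) and none fell, where 4.87% of all genes rose and 2.81% fell. That count became 2 without ITM, when Tnfaip3 was lower in Lyso (-1.95, adjusted p = 0.00757, edgeR), and 2 without the line labelled Rel, when Bcl3 was higher (3.47, adjusted p = 0.00136, edgeR). Of all genes, 935 rose and 857 fell without ITM, and 659 rose and 284 fell without the line Rel, against 727 and 420 with all libraries.

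Compared per length of exon, Rela was the most abundant member in the cultured groups. In CPM per kilobase its level was 20.3 ± 3.96 in WT, 17.8 ± 3.92 in the relapsed lines and 16.7 ± 2.47 in Lyso (SD, n = 3), above every other member without overlap. Nfkbia and Nfkb2 followed in each of these groups, and their levels overlapped in WT and in the relapsed lines. In Tumor Nfkbia was first at 28.3 ± 6.41 CPM per kilobase and overlapped Rela, at 22.8 ± 1.41. Nfkbiz held rank 3 there at 16.9 ± 1.25 CPM per kilobase, and in WT it had held rank 8 at 1.01 ± 0.117. Tnfaip3 and Bcl3 took the last places in WT, at 0.224 ± 0.0440 and 0.187 ± 0.171 CPM per kilobase, and overlapped. In Tumor the last place was held by Rel, at 2.67 ± 0.244 CPM per kilobase, although it had risen.

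Summed over the 5 inhibitors, the level per length was 14.0, 14.3 and 13.9 CPM per kilobase in the WT libraries, 19.2 (ITF1), 14.3 (ITM) and 16.8 (Rel) in the relapsed lines, 20.3, 21.2 and 20.8 in Lyso and 57.6, 51.0 and 64.9 in Tumor. The sum over the 5 subunits was 48.6, 35.8 and 38.2 CPM per kilobase in WT and 49.6, 43.5 and 45.7 in Tumor, with WT 1 inside the Tumor range. Per length, the inhibitor sum was below the subunit sum in every cultured library and above it in every Tumor library. The order in Tumor depends on the division by length: undivided, the inhibitors summed to 173.3 to 205.3 CPM and the subunits to 209.1 to 240.2 CPM. It depends as well on the genes counted: Nfkbiz and Bcl3 encode proteins that can also act in switching on targets, and Tnfaip3 an enzyme. Nfkbia and Nfkbie, the cytoplasmic inhibitors, had means of 28.3 and 4.54 CPM per kilobase in Tumor. Together these lay under the lowest subunit sum there, 43.5. The sums over 5 genes are descriptions of levels, with no test, and those of the inhibitors follow mostly Nfkbia and Nfkbiz in Tumor. Within the subunits, Rela took 49.6 ± 2.38% of the sum in WT, 49.2 ± 3.90% in the relapsed lines, 45.1 ± 3.67% in Lyso and 49.4 ± 4.07% in Tumor (SD, n = 3). Rel took 2.75 ± 0.525% in WT, 4.01 ± 0.990% in the relapsed lines, 4.93 ± 0.169% in Lyso and 5.77 ± 0.588% in Tumor. Undivided by length, the share of Rela over all libraries fell from 48.3% to 29.7% and that of Nfkb1 rose from 14.8% to 35.5%, so the order of subunits depends on this step.

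**Figure D4:**
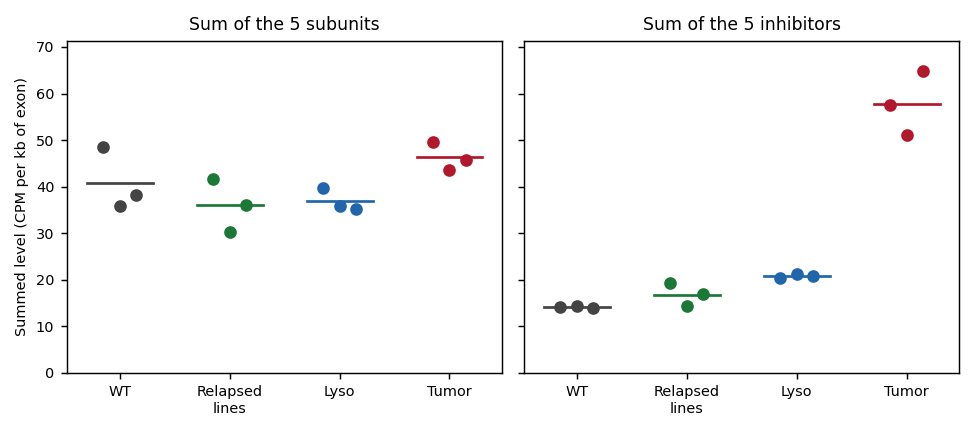
Summed level of the 5 subunit genes (left) and the 5 inhibitor genes (right) in every library, in CPM per kilobase of exon on linear axes that start at 0. Points are libraries and bars are group means. The inhibitor sum lies between 51.0 and 64.9 in Tumor and at or under 21.2 in all other libraries, and the subunit sums overlap.

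The genes that act before and after these factors were counted from lists. Of 10 genes of the IKK complex and its upstream kinases, 1 fell in Tumor and none rose: Ikbkg, the regulatory subunit NEMO, had 78.0 ± 11.2 CPM in WT and 50.4 ± 5.19 CPM in Tumor (SD, n = 3). The median log2 fold change of the list was -0.01. Of 13 tested receptor adaptors, 1 rose in Tumor (Birc3, the ubiquitin ligase cIAP2, 3.64 to 11.4 CPM) and 1 fell (Tradd, the adaptor of TNF receptor 1, 26.9 to 17.2 CPM). Of 13 tested genes of ubiquitin editing beside Tnfaip3, 1 rose (Zc3h12a, the RNase Regnase-1) and 1 fell (Otud7b, the deubiquitinase Cezanne). The remaining IkB gene that was tested, Nfkbib, was not called. Of all genes tested, 12.1% rose in Tumor and 6.94% fell.

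Of 9 tested receptors, 2 rose in Tumor, where 12.1% of all genes tested rose and 6.94% fell. Il1r1, the interleukin-1 receptor, had no count in any WT library and 29.2 ± 7.70 CPM in Tumor, and Tnfrsf1b, TNF receptor 2, had 0.447 and 5.41 CPM (means). Of the 3 ligands tested, Il1b and Tnfsf13b rose, to 2.95 and 1.86 CPM, and Il1b had no count in WT. These 4 genes were tested only because they were high in Tumor: fewer than 3 libraries of the other groups reached the filter on low counts. Of the 7 receptors and 1 ligand that reached it outside Tumor, none was called. Cd40 was listed at 0 in all WT and relapsed libraries, and it had counts in at least 1 library each of Lyso and Tumor. Of 24 tested targets of NF-kappaB, 18 rose in Tumor and 1 fell, with a median log2 fold change of 3.55. The filter sets part of this count and median, since 11 of the 24 were tested only through their level in Tumor, and all 11 rose. Of the 13 that reached the filter in at least 3 libraries outside Tumor, 7 rose and 1 fell, with a median of 0.98. The counts are descriptions of the list. The next 3 genes belong to the 11. The targets that rose included Cxcl1, a chemokine for neutrophils, at 0.228 CPM in WT and 103.3 CPM in Tumor. Ptgs2, the prostaglandin synthase COX-2, had no count in WT and 85.9 CPM in Tumor, and Saa3, an acute-phase protein, had 0.0590 and 101.3 CPM. The target that fell was Bcl2l1, the survival factor Bcl-xL, from 76.1 ± 20.4 to 47.8 ± 5.46 CPM (SD, n = 3).

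In Lyso no IKK gene was called, and 2 of 13 tested adaptors rose, Myd88 (17.2 to 45.0 CPM) and Ripk1 (49.9 to 85.6 CPM), the adaptor of Toll-like receptors and the kinase of TNF receptor complexes. The linear ubiquitin ligase genes Rnf31 (HOIP) and Rbck1 (HOIL-1), 2 of 13 tested genes of ubiquitin editing, rose by 1.34 and 0.40 on the log2 scale. The receptors Tnfrsf1a and Tlr3, 2 of 9 tested, rose by 1.43 and 1.84. Of 24 targets 4 rose and none fell, with a median log2 fold change of 0.15, or 0.02 with the 3 genes at 0 in all of one group set to the limit of 3 counts over the group. The 24 include the 11 tested only through their level in Tumor, which are part of this count and median. Of all genes tested, 3.50% rose in Lyso and 1.21% fell. Irf1 had 10.1 ± 6.92 CPM in WT and 720.7 ± 54.8 CPM in Lyso (SD, n = 3), Cxcl10 17.8 and 356.3 CPM, and Csf1 26.6 and 147.1 CPM. Irf1 and Cxcl10 are also known targets of interferons. In the relapsed lines no gene of any of these lists was called by edgeR. Whether Lyso and Tumor differ in how many listed genes changed was not tested.

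**Figure D5:**
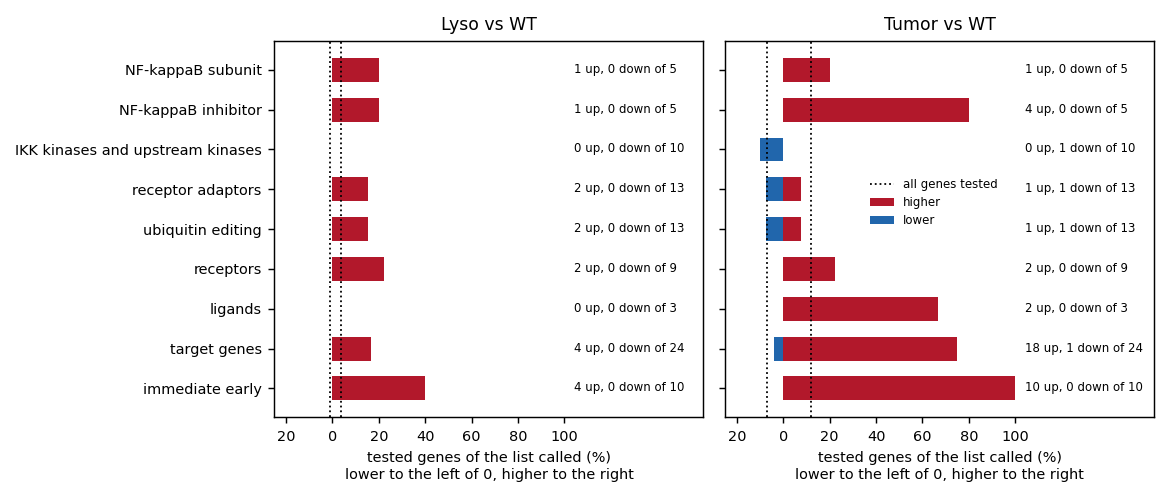
Share of the tested genes of each list called higher (red, to the right of 0) and lower (blue, to the left) against WT, in percent, for Lyso (left) and Tumor (right), with the counts beside the bars. Dotted lines give the shares of all genes tested. The target genes reach 18 of 24 in Tumor, 11 of them tested only through Tumor, and 4 of 24 in Lyso.

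Other genes moved together with the members in these groups. In Tumor all 10 fibroblast markers rose and summed to between 7707 and 10710 CPM, against at most 39.5 CPM in WT, with Col1a1 at 2224 ± 383 CPM (SD, n = 3). Of the myeloid markers 5 of 6 tested rose (sum 41.0 to 69.7 CPM in Tumor, 12.4 to 29.2 CPM in WT), and of the endothelial markers 6 of 7 tested rose and 1 fell (55.6 to 61.1 CPM, against 13.5 to 24.9 CPM). Of all genes tested, 12.1% rose in Tumor and 6.94% fell. The filter sets part of the marker counts. Tested only through their level in Tumor were 4 fibroblast, 2 myeloid and 5 endothelial markers, and all of them rose. Among markers that reached the filter in at least 3 libraries outside Tumor, 6 of 6 fibroblast and 3 of 4 myeloid ones rose. Of the 2 such endothelial markers 1 rose and 1 fell. No T cell marker of 4 tested was called in Tumor, with a median log2 fold change of 2.72. Of the 10 genes of that list, 3 were at 0 in all Tumor libraries (Cd3e, Cd3d and Cd8b1) and 9 in all WT libraries. The list summed to 3.6 to 9.4 CPM in Tumor and 1.27 to 6.79 CPM in WT. Fibroblasts, myeloid and endothelial cells express NF-kappaB genes as well, and the part of these cells in the levels of Nfkbiz, Tnfaip3, Bcl3, Nfkbia and Rel was not tested. In bulk samples fewer cells of a type and less RNA per cell cannot be told apart. All 10 immediate early genes rose in Tumor too, with a median log2 fold change of 3.85 and Fosb going from 3.53 to 1105 CPM, and 4 of 10 rose in Lyso, among them Zfp36, Junb and Egr1. Cells induce such genes quickly on a stimulus, including tissue digestion, and their part was not tested. In Lyso 3 of 4 tested T cell markers rose, Gzmb, Cd8a and Cd8b1, and the sum of the list was 15.1 to 17.0 CPM against 1.27 to 6.79 CPM in WT. These 3 genes had no count in any WT library, so they were tested through groups in which they were present. Of all genes tested, 3.50% rose in Lyso and 1.21% fell. The B cell marker Cd79b rose there as well, to 1.42 CPM. In Lyso 1 of 6 tested myeloid markers rose, and of 10 fibroblast markers 1 rose and 2 fell. The part of cells with these markers in the levels of Rel and Nfkbiz in Lyso was not tested.

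For each member the gene outside the set with the most similar profile over the 12 libraries was sought, by the smallest root mean square difference of centred log2 CPM among 14907 genes. Nfkb1 was nearest to Nop10 (0.0781), Nfkb2 to G6pc3 (0.0898) and Nfkbie to Senp7 (0.0967), all of which varied little. Rela was nearest to Golph3 (0.113), Rel to Lrch1 (0.172), Nfkbia to Tlr12 (0.212) and Relb to N4bp2l1 (0.220). Nfkbiz was nearest to H2-Q7 (0.314), Tnfaip3 to Loxl2 (0.414) and Bcl3 to Junb (0.425). This distance grows with the spread of the member itself, whose SD of log2 CPM was 1.64 for Nfkbiz, 1.95 for Tnfaip3 and 1.53 for Bcl3 but 0.168 for Nfkb1, so it does not rank the members by likeness. H2-Q7 belongs to a family of near-identical MHC genes, so its counts are uncertain. These distances are descriptions, over libraries that share their groups.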

How the data were processed

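RNA of 12 libraries of B16F10 cells (WT, relapsed lines, Lyso and Tumor, 3 each) was analysed from one table of raw counts per gene. Per the labels, the authors used fastp 0.19.6, STAR 2.7.1a, GRCm38 and DESeq2 1.24.0, and the deposited counts are not normalized. The 4 rows of reads outside genes were left out of library sizes and tests. They held between 43.53% and 44.77% of a library on no feature and between 11.35% and 14.91% on several loci, so reads shared by near-identical genes are not counted. Strand setting and annotation release are not given in the sources used here. Symbols, positions and exon lengths came from a GENCODE annotation of GRCm38, which held 54165 of the 54232 identifiers.

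The counts were tested with edgeR 4.0.16 in R 4.3.3 (glmQLFit, glmQLFTest, TMM, filterByExpr by group, 6 contrasts in one fit), with Benjamini-Hochberg adjustment over all 14924 genes tested. The study's methods name DESeq2, which was run as an alternative (1.42.0). Standard errors were taken as the fold change on the log2 scale divided by the root of F. The test was checked on simulated counts. Tables were built in Python 3.11.15. A floor of 3 counts, relative to library size without TMM, equals 1.80 CPM for WT 1, 1.28 CPM for WT 2 and 0.183 CPM for WT 3. On the TMM scale of the levels it is 1.70 CPM for WT 1 and 1.27 CPM for WT 2. The floor covers counting error only. The closest pair of replicates, Lyso 2 and Lyso 3, differed by more than counting noise (chi-square over its degrees of freedom, 1.55) and were kept as separate samples. Depth is partly confounded with the groups, and no sequencing batch is given.

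The members, the lists and the motifs were chosen with earlier results of these data known. All members are named in every comparison. Of each other list at most 3 genes per direction with the smallest p among those called against WT are named, and 1 nearest gene per member. Cd40, Cd3e, Cd3d and Nfkbib are named outside that rule, after their values were seen. Alternatives were DESeq2, RLE size factors, library size alone, no filter, only the compared groups, a log2 fold change over 1, the replicate block, WT 3 as the only control and each library left out. The result of 1 marker gene is not reported here. The authors' exome and human data were not analysed here.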

Additional observations from a re-analysis of the deposited data

How the results depend on the processing

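Of 710 values of single members under the alternatives, 648 kept direction and side of the threshold, 17 lost a call, 19 gained one and 26 changed sign, none of them a called value. The 5 members called in Tumor against WT were called in every alternative run.

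In Lyso against WT, the count of 2 members (Rel and Nfkbiz) was 3 under DESeq2, with Bcl3 added. It was again 2 without the filter and with only the compared groups, but these were Bcl3 and Nfkbiz, and Rel lost its call (adjusted p = 0.1225 and 0.0596, edgeR). It became 1 with a log2 fold change over 1, with library size alone and with WT 3 as the only control, where the adjusted p of Rel was 0.0702 with library size alone and 0.232 against WT 3, and it was 1 in each fit that left out a library. Of all genes, 701 rose in Lyso against WT and 357 fell under DESeq2, against 522 and 181 in the edgeR fit above. Without the filter 850 and 521 of 28974 did, and with only the compared groups 667 and 258. The numbers were 362 and 86 with a log2 fold change over 1, and 440 and 337 with library size alone. With a library left out, 294 to 604 genes rose and 41 to 289 fell. Between Tumor and Lyso the 4 members became 7 with only the compared groups. Between Lyso and the relapsed lines, 1 member became 2 under DESeq2 and 1 to 2 with a library left out. Without the filter it became 3, of which 1 was lower in Lyso (Tnfaip3, -1.47). Of all genes, 916 rose there and 606 fell under DESeq2, and 1055 and 842 of 28974 without the filter, against 727 and 420. Undivided by length, the subunit shares were 35.5% for Nfkb1, 6.52% for Rel and 29.7% for Rela. The cause was not tested.

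Signs changed for values near 0 or for genes with 1 library apart. Against WT 3 alone, Relb was 0.17 in Lyso and 0.098 in the relapsed lines. With a library left out, Relb ranged from -0.46 to 0.29 in Lyso and from -0.68 to 0.21 in the relapsed lines. In the relapsed lines against WT, Nfkb2 ranged from -0.12 to 0.069, Tnfaip3 from -0.40 to 1.084 and Bcl3 from -0.82 to 2.05. In Tumor against WT, Nfkb2 was -0.062 with library size alone, -0.039 without the filter and -0.0015 with only the compared groups, and -0.098 to 0.092 with a library left out. In Tumor against the relapsed lines without the filter, Nfkbie was -0.0066 and Nfkb2 -0.037, and with a library left out they ranged from -0.058 to 0.22 and from -0.067 to 0.12. Between Tumor and Lyso, Nfkb1 was -0.0069 without the filter and -0.011 to 0.089 with a library left out. Between Lyso and the relapsed lines, with a library left out, Rela ranged from -0.23 to 0.099, Relb from -0.18 to 0.48 and Nfkbie from -0.20 to 0.074.

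With the replicate number as a block, 2 members were called in Lyso against WT (Nfkbiz and Bcl3, adjusted p of Bcl3 0.00843), 5 in Tumor against WT and 3 in Tumor against Lyso (edgeR). Of all genes this fit called 628 higher and 206 lower in Lyso against WT (522 and 181 without the block), 1492 and 534 in Tumor against WT (1808 and 1035), and 1669 and 1054 in Tumor against Lyso (2121 and 1570). Libraries with the same number share only that number, with correlations of their deviations from -0.0151 to 0.100, and not every library correlated best with its own number. Depth limits Bcl3 and Tnfaip3 in WT 1 and WT 2, which are at or under 3 counts.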
